A study of Mus musculus with 4 samples.

Results

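miR-124 was followed through its 3 rows among the 1167 rows of the authors' deposited table: the 2 arms of its hairpin, mmu-miR-124-3p and mmu-miR-124-5p, and mmu-miR-124b-3p, written below without the species prefix. The rows were taken by name, but the family was chosen by its measured difference between the genotype means, so that difference is described here and no p-value printed for it is support; such p-values show only how the authors' call depends on the method. The study sequenced small RNA of the main olfactory epithelium, the odour-sensing lining of the nasal cavity, from male C57BL/6 mice 3 months of age. The groups were wild type (2 libraries) and AC3-/- (2 libraries), which lack adenylyl cyclase 3, the enzyme that turns odour receptor activation into cAMP in olfactory sensory neurons. How the AC3-/- allele was made, and whether the 2 libraries per genotype stand for different animals, is not given in the sources used here. Any p-value over libraries therefore measures only their spread, which may be technical.

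miRNAs are cut from hairpin precursors that yield a 5p and a 3p arm; usually one arm is kept by Argonaute as the guide that represses target mRNAs and the other is degraded. miR-124-3p is the guide of one of the most conserved miRNA families of animals. It is known as a neuronal miRNA that is abundant in brain, comes on as neurons differentiate and represses transcripts of non-neuronal cells, among them the splicing factor Ptbp1. In olfactory epithelium, neurons are replaced through life from basal cells, so immature and mature neurons are present together. These facts are background and are not results of these libraries.

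The authors' deposited table gives 1 mean of normalised reads per genotype. The whole reads of each library were worked back from these means, and the libraries are called a and b within a genotype, letters that carry no replicate number. All 12 library values of the 3 miR-124 rows could be worked back. Of the 444 rows that have library values and average at least 10 normalised reads, 115 differed at least 2-fold within wild type and 26 within AC3-/-. Wild-type libraries therefore differed more from each other than AC3-/- ones did, with a median absolute log2 difference of 0.58 against 0.33. Beside the label of the tissue, miRNAs known from sensory and olfactory epithelium were looked up. All 8 guides of the miR-183/96/182 and miR-200 families were listed, led by miR-200b-3p with 1351262 normalised reads in wild type and 399796 in AC3-/-. A row can be listed on few reads. miR-34c-5p, known from multiciliated cells, was also high, at 225941 in wild type and 230226 in AC3-/-. The lookup therefore cannot tell olfactory from neighbouring epithelium. Set as shares of each genotype's total instead, every log2 ratio of AC3-/- over wild type would be 0.50 higher, which turns the negative ratios nearer to 0 than that into positive ones.

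miR-124 is encoded at 3 places of GRCm38, all on the plus strand, and the mature guide does not tell them apart. Mir124a-1 lies on chromosome 14 from 64590657 to 64590741, and GENCODE places all 85 of its bases in an exon of the noncoding gene Mir124a-1hg. Mir124a-2 lies on chromosome 3 from 17795662 to 17795770 within the noncoding gene Mir124-2hg, with 27 of its 109 bases in an annotated exon of that gene and the others in introns. Mir124a-3 lies on chromosome 2 from 180894040 to 180894107, and 3 of its 68 bases overlap the exon of the noncoding gene Gm27032. The RefSeq gene table gives miR-124b as Gm51272, on chromosome 3 from 17795685 to 17795741. All 57 bases of that gene fall inside Mir124a-2, so the annotated miR-124b hairpin is part of the same stretch of DNA as a miR-124 hairpin. The RefSeq sequence table used here held 947 of the 1167 rows by name and none of the 3 miR-124 rows.

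Other loci where 2 miRNAs are annotated over the same bases show how the table treats them. 29 pairs of listed miRNAs lie opposite each other on the 2 strands and overlap by at least 15 bases. Sequences of 3 such pairs are given 5′ to 3′ to show that the members of a pair are reverse complements; capitals mark the complementary run.
miR-129-5p: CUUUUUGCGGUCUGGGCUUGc
miR-129b-3p: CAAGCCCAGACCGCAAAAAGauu
miR-9-5p: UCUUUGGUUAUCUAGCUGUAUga
miR-9b-3p: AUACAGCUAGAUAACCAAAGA
miR-142a-3p: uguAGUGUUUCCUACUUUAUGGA
miR-142b: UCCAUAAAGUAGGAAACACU
The sequences are from RefSeq (GRCm38.p6). On chromosome 2, miR-129b-3p spans 94241420 to 94241442 (plus strand) and miR-129-5p spans 94241419 to 94241439 (minus strand). On chromosome 11, miR-142a-3p spans 87756903 to 87756925 (plus strand), opposite miR-142b at 87756906 to 87756925. miR-9-5p and miR-9b-3p face each other at 3 loci, one of them on chromosome 3 from 88215613 to 88215635.

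Although their sequences differ, the rows of such pairs often held nearly the same values. miR-142a-3p and miR-142b each had 7690 and 9179 reads in the AC3-/- libraries, then 6179 and 1626 in the wild-type ones, with library a before b here and throughout. In the same order miR-129-5p had 255, 139, 130 and 1315 reads, and miR-129b-3p had 254, 138, 126 and 1293. miR-9-5p, the guide of a neural progenitor miRNA, averaged 107472 (AC3-/-) and 103336 (wild type) normalised reads, and miR-9b-3p 107336 and 103138. In 13 of the 29 pairs the smaller row held at least 90% of the larger, in 5 of them with identical values, and in another 13 it held under 50%. Where the values are equal, reads of one strand cannot be told from reads of the other in this table, although the libraries themselves were made by ligating adaptors to each end of the RNA.

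miR-124b-3p belongs with the nearly equal pairs by its values. It was read 18 and 11 times in the AC3-/- libraries, and 3 and 2 times in the wild-type ones. miR-124-5p had 19 and 11 reads in the AC3-/- libraries and 4 and 2 in the wild-type ones. The 2 rows thus differed by 1 read in 2 libraries and by none in the other two, and miR-124b-3p held 94.2% of the summed means of miR-124-5p. Such a match also occurs between other low rows. Among 88 rows with 24 to 46 reads in all, 13 of 3828 pairs stayed within 1 read in every library. The miR-124 pair was 1 of these, and at least 1 other joins rows of the same family. The strand of Gm51272 and the sequences of both miRNAs were not analysed here, so whether both rows count the same reads was not tested. For this reason miR-124-5p and miR-124b-3p are not treated as separate observations.

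**Figure D1:**
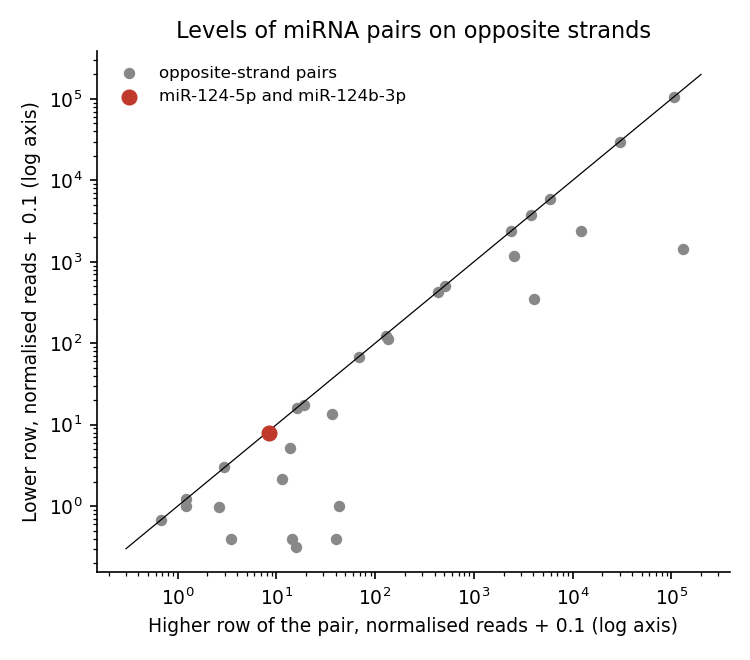
Each grey point is 1 of 29 pairs of miRNAs annotated opposite each other on the 2 strands, with the level of the higher row (mean of both genotypes, normalised reads + 0.1, log axis) against that of the lower row. The line marks equal values; 13 pairs hold at least 90% of the higher row in the lower one, and miR-124-5p with miR-124b-3p, in red, lies beside them at 94.2%.

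The guide, miR-124-3p, was the most read of the miR-124 rows in all 4 libraries and was higher in AC3-/-. It was read 262 and 201 times in the AC3-/- libraries, against 20 and 32 times in the wild-type ones. After the authors' normalisation these were 228.2 and 183.0 normalised reads in AC3-/- and 21.3 and 37.4 in wild type. The groups did not overlap: the lower AC3-/- library was 4.89-fold above the higher wild-type library, and the 2 libraries of a genotype lay 1.25-fold (AC3-/-) and 1.76-fold (wild type) apart. Exact 95% Poisson intervals, which cover counting error only, ran from 158.5 to 257.6 normalised reads over both AC3-/- libraries and from 13.0 to 52.8 over both wild-type libraries. The means were 205.6 ± 32.0 in AC3-/- and 29.3 ± 11.4 in wild type (SD, n = 2 each), a ratio of 7.01-fold. As a share of each genotype's normalised reads, miR-124-3p made up 23.5 ppm in AC3-/- and 2.38 ppm in wild type. In a bulk tissue such as this one, more cells of a type and more of a miRNA per cell cannot be told apart.

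The passenger arm, miR-124-5p, lay in the same direction at a much lower level. Its levels were 16.6 and 10.01 normalised reads for AC3-/-, against 4.25 and 2.34 for wild type. The groups did not overlap, but each wild-type value rests on no more than 4 reads. The Poisson intervals did overlap: wild-type library a (1.16 to 10.9) overlapped both AC3-/- libraries (9.97 to 25.8 and 5.00 to 17.9), and wild-type library b (0.28 to 8.45) overlapped AC3-/- library b. The means were 13.3 ± 4.62 and 3.29 ± 1.35 (SD, n = 2 each), a ratio of 4.03-fold.

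The row of miR-124b-3p repeated these values: 15.7 and 10.01 normalised reads for AC3-/-, against 3.19 and 2.34 for wild type. Its means were 12.8 ± 4.01 and 2.76 ± 0.60 (SD, n = 2 each), a ratio of 4.65-fold. All 3 miR-124 rows had both AC3-/- libraries above both wild-type libraries, as did 14.7% of all 1119 rows with library values; the rows were chosen with this contrast known, and nothing is read from the count.

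**Figure D2:**
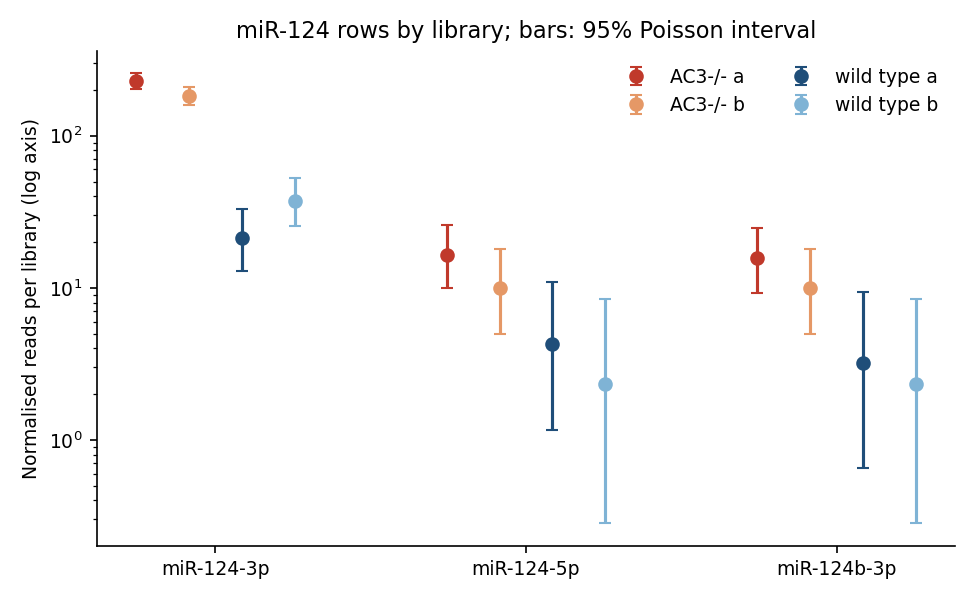
Normalised reads per library (log axis) of miR-124-3p, miR-124-5p and miR-124b-3p, with exact 95% Poisson intervals as bars. miR-124-3p is at 183.0 and 228.2 in the AC3-/- libraries (red and orange) and at 21.3 and 37.4 in the wild-type libraries (blue), while the other rows lie below 17 throughout, with the intervals of AC3-/- library b overlapping those of both wild-type libraries.

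The authors' own statistics set miR-124-3p apart from the other rows of the family. The authors' deposited table gives it p = 1.37e-08, adjusted p = 1.59e-05 and a log2 fold change, shrunken by the authors' method, of 2.26. It is the 1 row of 1167 (0.0857%) past an adjusted p of 0.05. For miR-124-5p the authors' deposited table gives a log2 fold change of 1.06 with p = 0.0357, and for miR-124b-3p one of 1.14 with p = 0.0232; the adjusted p is 0.940 for each. All 3 rows have an unadjusted p below 0.05 in the authors' deposited table. So do 3.51% of all rows, 1.54% as higher and 1.97% as lower in AC3-/-, and nothing is read from the count of members. The call of miR-124-3p depended on the method: limma on the library values of 444 rows gave it an adjusted p of 0.328 with a log2 difference of 2.81 and a standard error of 0.41. limma called no row at an adjusted p under 0.05 (16 rows, 3.6%, had an unadjusted p under 0.05). With 1 library left out, limma's adjusted p of miR-124-3p ran from 0.000124 without wild-type library b and 0.000164 without wild-type library a to 0.993 without AC3-/- library b and 0.999 without AC3-/- library a. In each of these fits the spread came from the remaining pair alone. With 2 libraries a side, the smallest p an exact permutation test can give is 0.33.

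Over the whole table, miR-124-3p was of middling level and at the top by ratio. By level it stood at place 248 of 1167 in the AC3-/- means and at place 385 in the wild-type means. The neighbours of its mean over both genotypes, 117.5, were miR-28a-3p at 119.1 and miR-300-3p at 113.0, whose log2 ratios of AC3-/- over wild type were -0.43 and 0.21. By the ratio of the means it was place 1 among 492 rows with a mean of at least 10, followed by miR-7b-5p (log2 ratio 2.65) and miR-323-3p (2.39), against 2.81 for miR-124-3p itself. Over all 1167 rows, with 1 added to each mean, it was place 2 behind miR-654-3p, whose 23 reads were all in AC3-/- library b. By the distance between the lower AC3-/- and the higher wild-type library it was place 1 of 444, with 4.89-fold, ahead of miR-323-3p with 3.00-fold and miR-1306-3p with 2.66-fold. miR-124-5p and miR-124b-3p were at places 18 and 12 of 1167 by ratio, and at places 466 and 468 by level in AC3-/-.

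**Figure D3:**
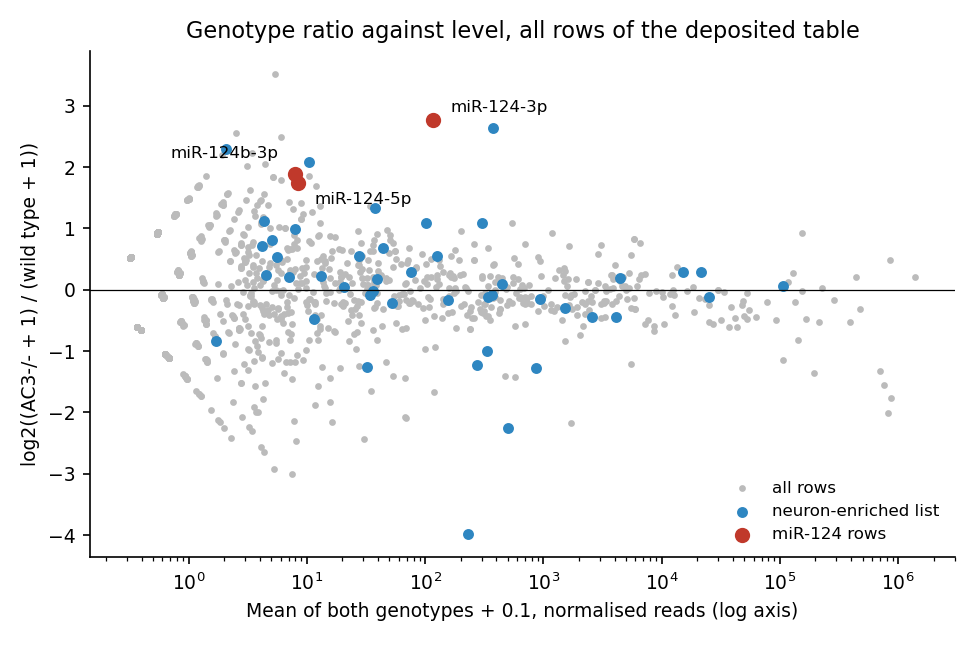
Every row of the authors' deposited table by the mean of both genotypes (normalised reads + 0.1, log axis) and by the log2 ratio of AC3-/- over wild type, with 1 added to each mean; grey, all 1167 rows; blue, the neuron-enriched list; red, the miR-124 rows. miR-124-3p stands at 2.77 on the ratio axis, above every row with a mean of at least 10, and the points at the left spread widely because they rest on few reads.

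The share of the minor arm of miR-124 could be given only roughly in wild type, where it rests on 4 and 2 reads. miR-124-5p made up 6.76% of the 281 reads of both arms in AC3-/- library a (exact 95% Clopper-Pearson interval 4.12 to 10.4) and 5.19% of 212 reads in library b (2.62 to 9.09). In wild type it made up 16.7% of 24 reads in library a (4.74 to 37.4) and 5.88% of 34 reads in library b (0.72 to 19.7). These intervals cover counting error only. All 4 overlapped, and a difference in arm share was not tested. In the means, miR-124-3p was 15.5-fold above miR-124-5p in AC3-/- and 8.90-fold above it in wild type. Ligation and PCR favour some sequences over others, so the ratio of 2 arms is one of reads and not of molecules.

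Among other precursors this arm ratio was not extreme. Of 339 precursors with both arms listed, 145 had a smaller share of the minor arm than the 6.59% of miR-124 over both genotypes, and the median share was 10.2%. Over 241 precursors with at least 10 normalised reads in both arms together, 138 had a smaller share and the median was 3.51%. Over 166 precursors with at least 100, miR-124 among them, 110 had a smaller share and the median was 2.04%. The arms of 200 of the 339 precursors (59.0%) had ratios of the same sign between the genotypes, as those of miR-124 did.

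**Figure D4:**
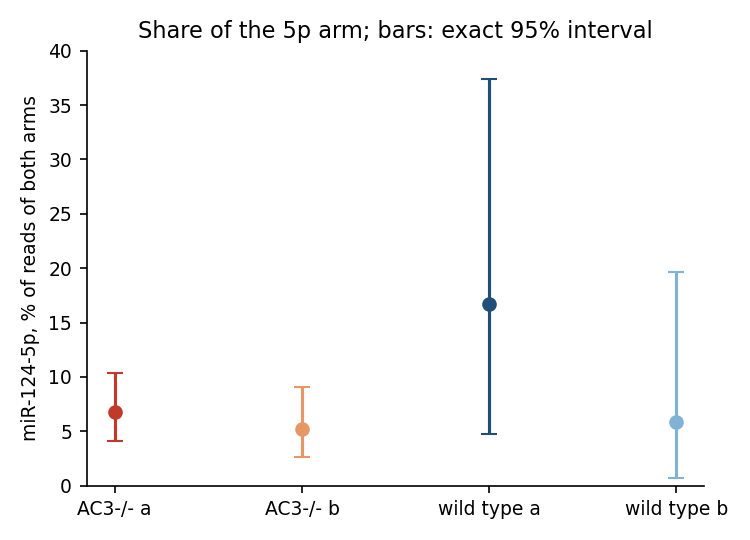
Share of miR-124-5p in the reads of both miR-124 arms, in percent, for each library, with exact 95% binomial intervals as bars. The AC3-/- libraries are at 6.76% and 5.19%, and the wild-type libraries at 16.7% and 5.88% with intervals reaching 37.4% and 19.7%.

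Other miRNAs known to be enriched in neurons did not share one direction. Of 46 fixed names other than miR-124, 44 were listed. Of these, 25 had a higher mean in AC3-/- and 19 a lower one, against 576 and 591 of all 1167 rows. Their median log2 ratio was 0.14 (1 added to each mean) against -0.01 over all 1167 rows. As shares of the genotype totals, 36 were higher and 8 lower. That scale raises the log2 ratio of every row by 0.50, and all rows were not counted on it. None of the 44 passed the authors' adjusted p. By the unadjusted p of the authors' deposited table, 7 of the 44 (15.9%, against 3.51% of all rows) were below 0.05, 4 of them higher in AC3-/- (background 1.54%) and 3 lower (background 1.97%). Of 40 with library values, 12 had both AC3-/- libraries above both wild-type libraries and 4 had both below, against 14.7% and 13.5% of all rows with library values. These lists were made with earlier results of these libraries known, so they are no independent support.

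The means of the 5 most abundant neuronal miRNAs stayed within a narrow range between the genotypes. Less abundant ones with a mean of at least 10 did not: their log2 ratios ran from -4.04 for miR-129-1-3p to 2.65 for miR-7b-5p. The means of miR-9-5p differed by a log2 ratio of 0.06, those of miR-125b-5p, of a family shared by many tissues, by -0.12, and those of miR-7a-5p by 0.29. The wild-type libraries of miR-7a-5p lay apart, at 24989 and 13934 normalised reads. miR-218-5p, known from motor neurons and forebrain, stood at 15933 and 17164 normalised reads (AC3-/-) and at 13905 and 13273 (wild type), a log2 ratio of 0.28. miR-128-3p, a brain guide that restrains neuronal excitability, had means of 4708 and 4136. miR-132-3p, known to be induced through CREB, is a less abundant member that was picked after its values were seen. It was at 494.8 and 435.1 normalised reads for AC3-/-, and at 445.2 and 426.8 for wild type. Against these, miR-124-3p was scarce in reads: it was at place 30 of 45 in wild type and at place 17 of 45 in AC3-/- when set among the 44 listed neuronal miRNAs by level.

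The 4 neuronal miRNAs on the higher side by the unadjusted p had both AC3-/- libraries above both wild-type ones. So did 14.7% of all rows with library values. The 4 were picked by a difference in this direction, so nothing is read from their non-overlap. None of the 4 reached the ratio of miR-124-3p. For miR-7b-5p the levels were 1098.5 and 205.7 normalised reads (AC3-/-) and 102.0 and 106.4 (wild type), so its ratio rested mainly on AC3-/- library a. The authors' deposited table gives it an adjusted p of 0.925. miR-1298-5p, a miRNA hosted by the serotonin receptor gene Htr2c, had 446.0 and 381.4 against 240.1 and 146.2. miR-344-3p, known from brain, had 149.8 and 126.5 against 85.0 and 43.3. miR-323-3p, from the imprinted Dlk1-Dio3 cluster, had 21.8 and 12.7 against 4.25 and 2.34.

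The 3 neuronal miRNAs on the lower side had their highest level in wild-type library b. miR-129-5p reached 1537.8 normalised reads there, against 138.1 in wild-type library a and 222.1 and 126.5 in AC3-/-. miR-129-1-3p, an arm of one of its precursors, had 820.9 in wild-type library b against 43.6 in library a and 24.4 and 28.2 in AC3-/-, and miR-330-3p 552.0 against 220.0, 155.1 and 174.8. In this library miR-124-3p had 37.4 normalised reads, well under its 183.0 and 228.2 in AC3-/-. Without wild-type library b the log2 ratio of miR-124-3p was 3.27, and 9 instead of 18 of the 40 neuronal miRNAs with library values were lower in AC3-/-.

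**Figure D5:**
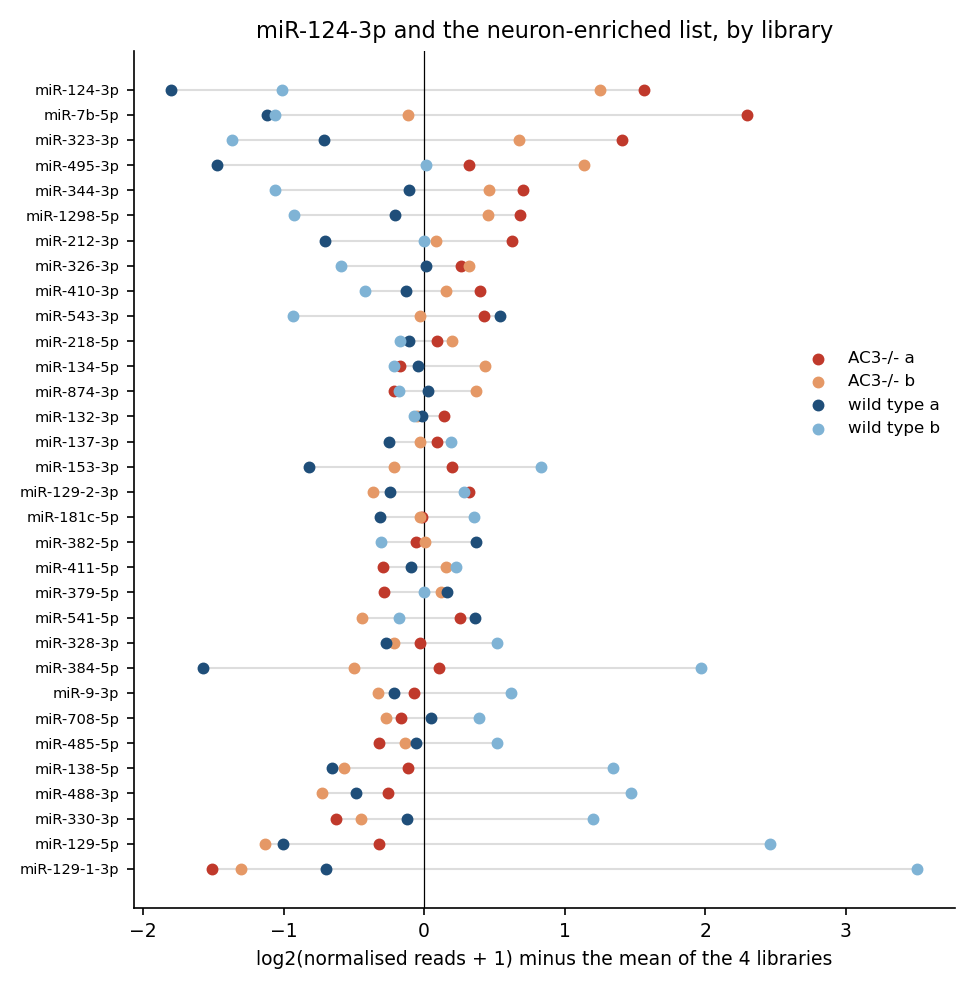
miR-124-3p and the neuron-enriched miRNAs that have library values and average at least 10 normalised reads, ordered by the AC3-/- minus wild-type difference; each point is 1 library, as log2(normalised reads + 1) minus the mean of the 4 libraries. miR-124-3p at the top has both AC3-/- libraries right of both wild-type ones, while at the bottom miR-129-5p and miR-129-1-3p lie farthest right in wild-type library b.

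Lists of miRNAs of neighbouring tissue and other cells were read beside the miR-124 difference. A subset of 20 of the neuronal names, abundant in brain and low in most epithelia, had 19 listed, of which 12 had a higher mean in AC3-/-; their median log2 ratio was 0.28. 8 of the 18 with library values had both AC3-/- libraries above both wild-type ones and 1 had both below, against 14.7% and 13.5% of all rows. Their summed level overlapped between genotypes: 17850 and 18626 normalised reads in AC3-/- and 15163 and 17952 in wild type. Most of that sum was miR-218-5p, and miR-344d-3p was at 0 in 3 libraries. Its part in the miR-124 difference was not tested. Log2 ratios of the subset members with a mean of at least 10 ran from -2.27 for miR-129-5p to 2.39 for miR-323-3p. miR-137-3p was picked after its values were seen and does not stand for the subset. It was at 21.8 and 20.03 normalised reads for AC3-/-, and at 17.0 and 23.4 for wild type.

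Glial miRNAs had no common direction. 1 of 4, miR-219a-2-3p, had a higher mean in AC3-/-, with 8.71 and 29.1 normalised reads against 5.31 and 8.19, and its groups did not overlap. The other three had a lower mean; of these miR-219a-5p, at 10.5 and 8.19 against 11.7 and 15.2, did not overlap either. Of all rows with library values, 14.7% had both AC3-/- libraries above and 13.5% both below. These glial rows rest on at most 32 reads per library, and nothing is read from their non-overlap. The summed level of the 4 overlapped, at 708.2 and 552.5 normalised reads for AC3-/-, and 403.8 and 1198.7 for wild type, with no member at 0. The 8 sensory and olfactory epithelium miRNAs were all lower in AC3-/-, with a median log2 ratio of -1.34; 4 had an unadjusted p below 0.05, as the authors' deposited table gives it, against 1.97% of all rows on the lower side. miR-141-3p, the 1 of them with library values, was at 18849 and 22274 for AC3-/-, and at 17615 and 41585 for wild type. Its log2 ratio was 0.22 against wild-type library a alone and -1.02 against library b alone. The minor arms miR-182-3p and miR-183-3p, picked after their values were seen, were also highest in wild-type library b. In wild-type library a, miR-183-3p lay between the AC3-/- libraries and miR-182-3p above both. The other members have no library values, so whether their lower means rest on wild-type library b was not tested. All 6 leukocyte miRNAs had a higher mean in AC3-/- (median log2 ratio 0.65); the summed level of the 5 with library values was 14116 and 17683 in AC3-/- and 16553 and 5197 in wild type. All 4 multiciliated-cell miRNAs also had a higher mean (median 0.10); the summed level of the 3 with library values was 5446 and 8137 in AC3-/- and 11619 and 1174 in wild type. Among members with library values, these directions changed with the wild-type library: against wild-type library a alone, the median log2 ratio was -0.62 for the multiciliated and -0.01 for the leukocyte list, and against library b alone 2.86 and 1.67. The glial median likewise was 0.59 against library a and -0.80 against library b, and the red cell median -0.35 and 0.37. All 3 vascular miRNAs had a higher mean (median 0.27). All 4 muscle (-0.28) and all 3 basal and squamous epithelium miRNAs (-0.18) were lower, and of the red cell miRNAs 1 of 4 was higher (-0.07); as shares of the genotype totals, these 3 medians and the glial one of -0.39 would be above 0. None of these lists had a member past the authors' adjusted p, and their part in the miR-124 difference was not tested.

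The rows most like miR-124-3p over the 4 libraries were found by the root mean square difference of log2(normalised reads + 1), each row centred on its own mean. Its median over the other 443 rows was 1.49. The 5 nearest rows are shown with the seed, bases 2 to 8, in capitals, to show that no 2 of them share a seed.
miR-186-3p: gCCCUAAGgugaauuuuuuggg
miR-323-3p: cACAUUACacggucgaccucu
miR-1306-3p: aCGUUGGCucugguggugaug
miR-495-3p: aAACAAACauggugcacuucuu
miR-7b-5p: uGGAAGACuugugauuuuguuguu
These are RefSeq sequences (GRCm38.p6) from chromosomes 3, 12, 16, 12 and 17. miR-186-3p was nearest, at 0.53, with 20.04 and 17.3 normalised reads for AC3-/-, and 3.19 and 7.02 for wild type. miR-323-3p followed at 0.64 and miR-1306-3p at 0.76, the latter with 11.3 and 21.8 against 4.25 and 3.51. miR-495-3p, of the Dlk1-Dio3 cluster, was at 0.83 with 39.2 and 70.1 against 10.6 and 31.6, and miR-7b-5p was at 0.84. 3 of the 5 nearest rows had a mean under 12 over both genotypes, where few reads make large ratios common, and the likeness rests on 4 libraries.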

How the data were processed

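Small RNA of the main olfactory epithelium was sequenced in 4 samples, grouped by their titles. Bowtie, DESeq 1.8.3 and GRCm38 appear, without their roles, in the submitters' processing notes; no source used here gives the counter, miRBase release, strand setting or filters. The deposited abundance columns are a signal, the mean of normalised read counts of 2 libraries, per the file headers and the values. The authors' log2 fold change is shrunken, to a median of 86.1% of the plain log2 ratio among rows averaging at least 100. The authors' adjusted p-value is the Benjamini-Hochberg adjustment over 1167 rows.

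Each mean is the sum of whole reads of 2 libraries, each read worth a fixed step (size factors 1.148 and 1.099 for AC3-/-, 0.9411 and 0.8551 for wild type). 1122 AC3-/- rows (96.1%) and 1127 wild-type rows (96.6%) had 1 solution, including every miR-124 row; on 6 simulated tables all 6689 rows with 1 solution were right. The reads of both libraries together came to between 19240465 and 20020454 in AC3-/- and between 21176520 and 23082953 in wild type. limma 3.58.1 (R 4.3.3, intensity trend) ran on log2(normalised reads + 1) of rows with a mean of at least 10, and was tested on simulated data. The members and lists were chosen with earlier results of these data known. Names came from a fixed rule: the miR-124 rows, the 5 most abundant, highest, lowest and p under 0.05 members of each list, and neighbours by ratio, level and pattern; of these the text gives those its comparisons rest on. miR-654-3p, miR-132-3p, miR-137-3p, miR-142a-3p, miR-142b, miR-9b-3p, miR-129b-3p, miR-182-3p and miR-183-3p were chosen after their values were seen. Seed sharing with miR-124-3p was not analysed here.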

Additional observations from a re-analysis of the deposited data

How the results depend on the processing

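The log2 ratio of miR-124-3p was also taken under 9 other scales, scalings and left-out libraries. It ran from 2.26 (the authors' shrunken value) to 3.30 (shares of the genotype total, which shift each row by 0.50). With 1 library left out it ran from 2.46 to 3.27. Both AC3-/- libraries lay above both wild-type ones, so leaving out a library or adding to each mean could not reverse its sign. The low rows moved more. miR-124-5p went from 2.01 to 1.06 on the authors' shrunken scale and to 0.81 with 10 added to each mean, and miR-124b-3p from 2.22 to 1.14 and 0.84; leaving out a library gave 1.60 to 2.51 and 1.86 to 2.50. The adjusted p of miR-124-3p was 0.328 with limma and from 0.000124 to 0.999 with limma and 1 library left out. limma called 0 rows with all libraries and 0 to 64 with 1 left out (64 without wild-type library a, 1 without b), where the arm with 1 library is assumed to vary like the other pair. Both AC3-/- libraries lay above both wild-type ones in 74 rows with a mean of at least 10, in 36 with at least 100 and in 165 of any level, and below in 76, 44 and 151; the counts follow the number of rows. Adding the reads of miR-124b-3p to those of miR-124-5p raised the minor share to 12.4% and 9.87% in AC3-/- libraries a and b. Of the 44 neuronal miRNAs, 19 were lower in AC3-/-, or 8 on shares of the total, a scale that raises every row alike. Of the 40 with library values, 18 were lower, and 9 to 21 with 1 library left out, lowest without wild-type library b. No paired analysis was possible because the deposited columns carry no replicate number. Limma and the further filters were added after seeing the data.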
